A study of Mus musculus with 2 samples.

Results

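The expression of 10 glycolytic genes was followed through the myogenic states of regenerating mouse muscle: the hexokinases Hk1 and Hk2, the phosphofructokinases Pfkm and Pfkp, the aldolase Aldoa, the phosphoglycerate mutases Pgam1 and Pgam2, the enolases Eno1 and Eno3, and the lactate dehydrogenase subunit Ldha. They are 10 of the 32286 features of the deposited matrices, chosen by symbol as the isoenzymes that muscle and proliferating cells use at 6 steps of the pathway, and all 10 were found. The cells were satellite cells, the stem cells of skeletal muscle, sorted by flow cytometry from biceps and recto femoris muscles at 5 days post-injury. GFP+ cells (labelled PAX3+) and GFP- cells (labelled PAX3-) both came from Pax3GFP/+ animals, in which GFP marks cells that express the transcription factor PAX3, and the genotype field of both libraries reads wild-type. Each sort gave 1 droplet library from 20000 loaded cells. The labels do not say how many animals were used, their age or sex, what the injury was, or whether cells of the muscles were pooled in a library.

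Glycolysis turns glucose into pyruvate, and lactate dehydrogenase turns pyruvate into lactate. Several of its steps are catalysed by isoenzymes encoded by separate genes. Hexokinase traps glucose in the cell, and hexokinase 2 is the form known for insulin-responsive muscle, whereas hexokinase 1 is found in most tissues. Phosphofructokinase commits the sugar to the pathway, with a muscle form (Pfkm) and a platelet form (Pfkp). Phosphoglycerate mutase and enolase each have a broadly expressed form (Pgam1 and Eno1) and a form that accumulates in differentiated muscle (Pgam2 and Eno3). Aldolase A and lactate dehydrogenase A are the main forms of their enzymes in fast muscle and are also abundant in proliferating cells.

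Values are UMIs (unique molecular identifiers, 1 per captured transcript) summed over the cells of a state and scaled to the total UMIs of the same cells (CPM). The 3′ assay tags each transcript once at its end, so the levels need no division by transcript length. With 1 library per sort there are no replicates and no test of GFP+ against GFP- cells. All brackets hold 95% intervals that cover counting error only, and every difference is one between these libraries. A gene is called here when it reached 20 CPM in 1 of the 2 sums compared and the sums differed by at least 1.5-fold.

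The GFP+ library held 601 cells (median 18508 UMIs), of which 517 (86.0%) lay in myogenic clusters, and the GFP- library 2672 cells (median 14650 UMIs), of which 2466 (92.3%) did. The 9 myogenic clusters comprised a larger and a smaller quiescent satellite cell-like cluster, 3 activated myoblast-like clusters, an interferon-response cluster, a cycling-like cluster and 2 myocyte-like clusters. The name of the smallest activated-like cluster (20 GFP+ and 182 GFP- cells) is weak, with Myf5 alone of its list among its 10 leading genes. Its activated markers summed to 2935 CPM in GFP+ and 2995 CPM in GFP- cells. Over all myogenic cells outside the myocyte-like clusters they summed to 3988 and 4672 CPM. The glycolytic genes themselves were kept out of the clustering. Both myocyte-like clusters had Myog, Mymk and Acta1 among their leading genes; one, called Myog-high here, was led by Myog, and the other, called contractile, also had Myh3 and Mylpf among its leading genes. The name marks the leading gene, not the highest level: Myog stood at 4893 CPM in GFP+ and 3395 CPM in GFP- cells of the Myog-high cluster, and at 7738 and 6586 CPM in the contractile one. Together they held 68 GFP+ cells (13.2% of myogenic cells) and 359 GFP- cells (14.6%). The libraries shared 2 cell barcodes. The 10 macrophage markers summed to 17.1 CPM in GFP+ and 8.30 CPM in GFP- myogenic cells, and the 6 endothelial markers to 3.53 and 2.95 CPM, with 3 and 1 of them at 0. The 8 mural markers summed to 1600 and 1657 CPM, of which Acta2 made up 90.5% and 90.7%, while Rgs5 stood at 2.0 and 3.80 CPM. The 6 fibro-adipogenic markers summed to 736 and 636 CPM, of which Col3a1 made up 94.5% and 97.9%, while Pdgfra stood at 0 and 0.309 CPM. The part of these cell types' RNA in the differences between the sorts was not tested. The smaller quiescent-like cluster stood apart by depth and by sort. Its median depth was 6396 UMIs in GFP+ cells and 3646 UMIs in GFP- cells, and it held 122 GFP+ cells (23.6% of myogenic cells) against 49 GFP- cells (1.99%).

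The 4 genes of the mutase and enolase pairs are shown first with the 250 bases before their RefSeq transcript start (GRCm38.p6), because Pgam2 and Eno3 are the muscle forms whose shares of their pairs are followed through the states. Capitals mark the motifs searched for on both strands: the MEF2 consensus, the E-box letters CAGCTG and CAGGTG that myogenic factors can bind, the MEF3 letters TCAGGTT, and ACGTG, the core of the hypoxia response element; TATAAA was searched on the gene's strand. Pgam2 (chr11:5803797-5804046, minus strand) held 3 motifs:
Pgam2: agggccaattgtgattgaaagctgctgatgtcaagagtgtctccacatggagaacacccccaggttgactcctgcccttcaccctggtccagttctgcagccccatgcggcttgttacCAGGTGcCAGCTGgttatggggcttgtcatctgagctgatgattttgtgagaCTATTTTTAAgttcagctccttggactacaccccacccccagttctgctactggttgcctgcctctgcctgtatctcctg
They were CAGGTG at 132 and CAGCTG at 125 bases before the start, which do not overlap each other, and a MEF2 consensus at 80 bases. Pgam1 (chr19:41911621-41911870, plus strand) held 1 hypoxia core, at 114 bases:
Pgam1: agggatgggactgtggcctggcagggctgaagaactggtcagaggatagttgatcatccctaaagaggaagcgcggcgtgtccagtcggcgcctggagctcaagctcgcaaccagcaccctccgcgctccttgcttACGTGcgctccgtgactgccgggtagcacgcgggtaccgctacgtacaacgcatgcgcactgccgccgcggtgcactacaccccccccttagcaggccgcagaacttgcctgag
Eno3 (chr11:70656926-70657175, plus strand) held none of the motifs in this window:
Eno3: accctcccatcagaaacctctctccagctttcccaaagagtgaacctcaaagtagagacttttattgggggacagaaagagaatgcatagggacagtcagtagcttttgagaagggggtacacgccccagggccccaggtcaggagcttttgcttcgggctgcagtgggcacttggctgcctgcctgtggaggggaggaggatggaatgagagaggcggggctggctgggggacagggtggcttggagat
Eno1 has 3 listed starts, none with a motif, of which the one nearest the annotated gene start is shown (chr4:150236458-150236707, plus strand):
Eno1: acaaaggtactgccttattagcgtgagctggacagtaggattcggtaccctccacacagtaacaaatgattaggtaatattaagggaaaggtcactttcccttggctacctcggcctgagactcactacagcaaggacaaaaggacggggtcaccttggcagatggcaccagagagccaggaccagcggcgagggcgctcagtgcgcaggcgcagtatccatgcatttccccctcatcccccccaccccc
Over the 32851 listed promoters of the same length, the MEF2 consensus occurred in 2.92%, CAGCTG in 13.0%, CAGGTG in 17.2%, TCAGGTT in 3.49%, ACGTG in 16.6% and TATAAA in 7.59%. All 10 members were in the table, with 19 starts; of these 19 promoters 1 held the MEF2 consensus, 1 CAGCTG, 4 CAGGTG and 7 ACGTG. Pgam2 alone among them held the MEF2 consensus or CAGCTG, whereas CAGGTG was present for 3 members (Pfkm, Pgam2 and Ldha) and ACGTG for 5 (Hk2, Pfkm, Aldoa, Pgam1 and Ldha). These matches describe the letters of the window and show no binding.

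The hexokinases had their highest levels in quiescent-like cells, where the enolases were lowest. Hk1 (ENSMUSG00000037012, chromosome 10, 62268855 to 62379908, minus strand) was highest in the smaller quiescent-like cluster, at 113 CPM in GFP+ and 91.1 CPM in GFP- cells. Its lowest GFP+ level was 25.3 CPM in the cycling-like cluster, and its lowest GFP- level was 6.42 CPM in the contractile cluster. Hk2 (ENSMUSG00000000628, chromosome 6, 82725025 to 82774454, minus strand) peaked in quiescent-like clusters too. It stood at 93.7 CPM in the smaller one in GFP+ cells and at 39.0 CPM in the larger one in GFP- cells. Its lowest level was in the contractile cluster, at 14.3 CPM in GFP+ cells (6 UMIs) and 6.42 CPM in GFP- cells (16 UMIs). The cycling-like over the larger quiescent-like cluster gave 0.379-fold for Hk2 in GFP+ cells (0.262 to 0.535) and 0.334-fold in GFP- cells (0.269 to 0.414). Over the 17 cluster-by-library sums of at least 20 cells, the log2 levels of Hk1 had a Pearson r of 0.770 with those of Hk2 and of -0.777 with those of Eno3. These sums share their libraries and depth, and every r here is a description.

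Within the myocyte-like cells both hexokinases had ratios below 1 in the contractile over the Myog-high cluster, with an interval that holds 1 for Hk1 in GFP+ cells. Hk1 was at 0.617-fold in GFP+ cells (0.302 to 1.16) and at 0.160-fold in GFP- cells (0.0893 to 0.267). Hk2 was at 0.236-fold in GFP+ cells (0.0841 to 0.536) and at 0.331-fold in GFP- cells (0.181 to 0.569). Among the 5669 genes past the minimum in GFP+ cells, 33.4% were called in that comparison (17.3% higher and 16.1% lower), and of the 5662 in GFP- cells 21.4% (9.73% higher and 11.7% lower). The members called lower were Hk1 and Hk2 in GFP+ cells and Hk1 in GFP- cells, where Hk2 stayed under 20 CPM in both clusters. Those called higher in both libraries were Pfkm, Pgam2 and Eno3.

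**Figure D1:**
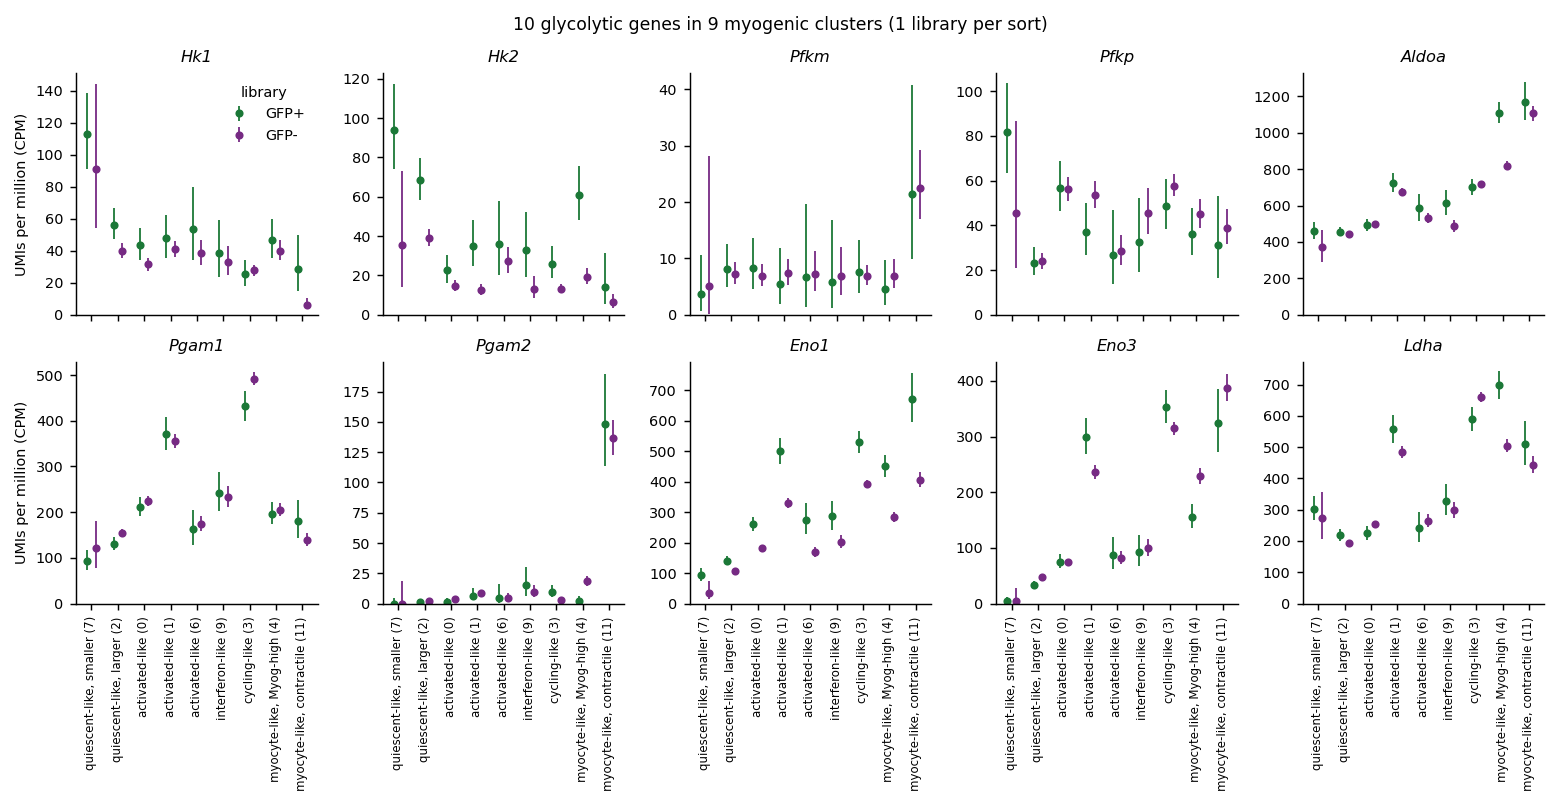
Levels of the 10 genes (CPM of summed UMIs, linear y axes that differ between panels) in 9 myogenic clusters (x axis) of the GFP+ library (green) and the GFP- library (purple), with 95% Poisson intervals for counting error. Eno1 lies higher in GFP+ cells in each cluster, Pgam2 stands above 100 CPM in the contractile cluster alone, and Hk1 and Hk2 are highest in quiescent-like clusters.

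Of the phosphofructokinases, Pfkm (ENSMUSG00000033065, chromosome 15, 98092589 to 98132451, plus strand) was low in 8 of the 9 myogenic clusters, at 3.65 to 8.27 CPM in GFP+ and 5.06 to 7.38 CPM in GFP- cells. In the contractile cluster it stood at 21.5 CPM in GFP+ cells (9 UMIs) and 22.5 CPM in GFP- cells (56 UMIs), 4.78-fold (1.52 to 16.3) and 3.24-fold (2.05 to 5.24) above the Myog-high cluster. Its share of the Pfkm plus Pfkp UMIs was 40.9% there in GFP+ cells (20.7 to 63.6) and 36.6% in GFP- cells (29.0 to 44.8). Outside the myocyte-like clusters the share was 14.2% in GFP+ and 13.2% in GFP- cells. Pfkm and Pgam2, both highest in the contractile cluster, had an r of 0.839 over the 17 sums. The contractile cluster enters these sums from the GFP- library alone, since its GFP+ part held 15 cells. Both genes were highest in that sum, so it weighs heavily in the r. Pfkp (ENSMUSG00000021196, chromosome 13, 6579768 to 6648777, minus strand) ranged from 23.3 to 81.6 CPM in GFP+ and from 23.9 to 57.8 CPM in GFP- cells. Its cycling-like over larger quiescent-like ratio was 2.10 in GFP+ (1.47 to 3.01) and 2.41 in GFP- cells (2.04 to 2.87). In the order of its 9 cluster levels, all 8 pairs of neighbours had overlapping intervals in both libraries, as did those of Hk2.

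Aldoa, the enzyme that splits the doubly phosphorylated sugar, had the highest CPM of the 10 members in each of the 9 myogenic clusters of both libraries. Aldoa (ENSMUSG00000030695, chromosome 7, 126795234 to 126800751, minus strand) was highest in the contractile cluster, at 1169 CPM in GFP+ and 1107 CPM in GFP- cells. The Myog-high cluster followed, at 1109 CPM in GFP+ and 820 CPM in GFP- cells. Its lowest level was 457 CPM in the larger quiescent-like cluster of GFP+ cells and 370 CPM in the smaller one of GFP- cells.

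The muscle mutase Pgam2 had its highest level in the contractile myocyte-like cluster in both libraries, which held 62 of the 103 GFP+ and 340 of the 573 GFP- Pgam2 UMIs of the 9 myogenic clusters. Pgam2 (ENSMUSG00000020475, chromosome 11, 5801640 to 5803733, minus strand, GRCm38/mm10) stood there at 148 CPM in GFP+ cells (62 UMIs) and 136 CPM in GFP- cells (340 UMIs). In GFP- cells 37 of 255 Myog-high cells and 37 of 295 cells of one activated cluster also carried at least 1 UMI. In the other 8 myogenic clusters it lay between 0 and 15.4 CPM in GFP+ cells and between 0 and 18.5 CPM in GFP- cells. The highest of these was the interferon cluster in GFP+ cells and the Myog-high myocyte-like cluster in GFP- cells. Within the myocyte-like cells the contractile cluster exceeded the Myog-high cluster 65.8-fold in GFP+ cells (21.5 to 328), where the Myog-high cluster had 3 UMIs. The same ratio was 7.38 in GFP- cells (5.77 to 9.54). The number of cells behind these levels differed: 8 of 15 contractile GFP+ cells and 73 of 104 contractile GFP- cells (70.2%) had at least 1 Pgam2 UMI. Of the contractile GFP+ cells, 5 of the 15 held 95.2% of the Pgam2 UMIs, so the GFP+ level rests on them. In those 15 cells the 5 cells with most UMIs of a gene held 91.9% for Eno3, 71.9% for Eno1 and 66.9% for Aldoa. After every cell was thinned to 5000 UMIs, 5 of 13 contractile GFP+ cells (38.5%, 13.9 to 68.4) and 35 of 102 GFP- cells (34.3%, 25.2 to 44.4) carried it, against 0 of 68 and 1 of 44 macrophage-like cells. Median depths were 26997 and 21296 UMIs in the contractile cells and 13571 and 8086 UMIs in the macrophage-like cells. For 0 of 68 cells, a count of 0 allows a share of up to 4.41% of cells with a UMI at that depth (3 counts of the total), which sets no limit on cells that express the gene. Empty droplets (barcodes with 1 to 100 UMIs) held Pgam2 at 38.6 CPM in the GFP+ library and 23.8 CPM in the GFP- library, above the level of every myogenic cluster but the contractile one.

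Its partner Pgam1 (ENSMUSG00000011752, chromosome 19, 41911923 to 41918660, plus strand), which catalyses the same step in most tissues, had its maximum elsewhere. Pgam1 was highest in the cycling-like cluster, at 432 CPM in GFP+ and 493 CPM in GFP- cells, and lowest in the smaller quiescent-like cluster, at 93.7 and 122 CPM. In the contractile cluster it stood at 182 CPM in GFP+ cells and 140 CPM in GFP- cells. The Pgam2 share of the pair's UMIs was 44.9% in contractile GFP+ cells (36.5 to 53.6) and 49.3% in contractile GFP- cells (45.6 to 53.1). In the Myog-high myocyte-like cluster the share was 1.13% in GFP+ cells (0.234 to 3.27) and 8.25% in GFP- cells (6.59 to 10.2), with intervals that do not overlap. Outside the myocyte-like clusters it was 1.80% in GFP+ (1.28 to 2.46) and 1.43% in GFP- cells (1.22 to 1.68). Macrophage-like cells, which should lack the muscle form, had a share of 0.287% in GFP+ and 1.32% in GFP- cells from 1 and 3 Pgam2 UMIs.

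**Figure D2:**
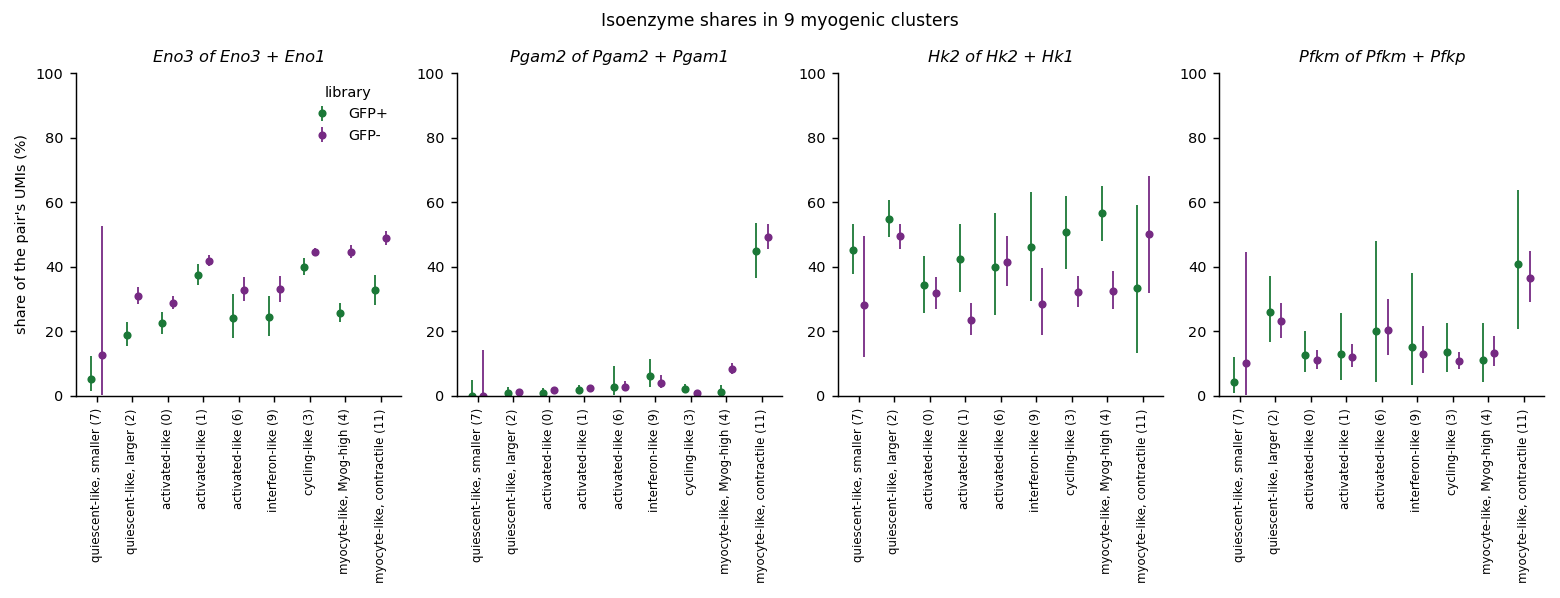
Share of each isoenzyme pair's UMIs (percent, y axis) in 9 myogenic clusters (x axis, cluster number in brackets) of the GFP+ library (green) and the GFP- library (purple); points are shares of summed UMIs and bars are 95% exact binomial intervals, which cover counting error only. Pgam2 reaches 44.9% in GFP+ and 49.3% in GFP- cells of the contractile cluster, and the Eno3 share lies lower in GFP+ cells in each of the 9 clusters.

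The muscle enolase Eno3 had a different distribution: it was high in cycling-like and activated cells as well as in myocyte-like cells. Eno3 (ENSMUSG00000060600, chromosome 11, 70657202 to 70662513, plus strand) was lowest in the smaller quiescent-like cluster, at 4.87 CPM in GFP+ and 5.06 CPM in GFP- cells. In GFP+ cells it was highest in the cycling-like cluster (353 CPM), ahead of the contractile cluster (325 CPM, with 91.9% of the UMIs in 5 of 15 cells), with intervals that overlap. In GFP- cells the order was reversed, with 388 CPM in the contractile and 315 CPM in the cycling-like cluster. One activated cluster, which had Eno3 among its 10 leading genes, stood at 299 CPM in GFP+ and 236 CPM in GFP- cells. The cycling-like over the larger quiescent-like cluster gave 10.8-fold in GFP+ cells (8.55 to 13.9) and 6.59-fold in GFP- cells (5.91 to 7.36).

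Eno1 (ENSMUSG00000063524, chromosome 4, 150236721 to 150248879, plus strand), the ubiquitous enolase, moved through the states in nearly the same order as Eno3. Its highest cluster was the contractile one, at 672 CPM in GFP+ and 406 CPM in GFP- cells, followed by the cycling-like one, at 529 and 391 CPM. Its lowest was the smaller quiescent-like cluster, at 92.5 CPM in GFP+ cells and 35.4 CPM in GFP- cells. Over the 17 sums Eno1 and Eno3 had an r of 0.919, the highest of the 45 member pairs. Eno1 shares 80.4% of the 60-base windows of its last 400 bases with the near-identical copy Eno1b. Reads that fit both genes could be split between them or left uncounted. The other 9 members shared no such window with another gene. Adding the Eno1b UMIs moved the Eno3 share of myocyte-like cells to 27.8% in GFP+ and 46.2% in GFP- cells, by less than their intervals. Reads left uncounted would not be restored by that sum, so it cannot show how far they changed the Eno3 share.

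The Eno3 share of the 2 enolases' UMIs was lower in GFP+ than in GFP- cells in each of the 9 myogenic clusters. In the myocyte-like clusters it was 28.1% in GFP+ cells (25.6 to 30.7) and 46.6% in GFP- cells (45.1 to 48.2). In the cycling-like cluster it was 40.0% in GFP+ (37.4 to 42.7) and 44.6% in GFP- cells (43.4 to 45.8), and in the larger quiescent-like cluster 18.9% (15.3 to 23.0) and 30.9% (28.3 to 33.6). The smaller quiescent-like cluster had few UMIs, with 4 of Eno3 and 76 of Eno1 in GFP+ cells and 1 and 7 in GFP- cells. Shares of macrophage-like cells were 4.4% in GFP+ (2.22 to 7.74) and 8.46% in GFP- cells (4.30 to 14.6). They rest on 11 Eno3 UMIs in each library, and their intervals overlap. The differentiating myocyte markers summed to 170 CPM in GFP+ and 1429 CPM in GFP- macrophage-like cells, so their myogenic RNA differed too. Shares of empty droplets were 39.9% in the GFP+ and 50.3% in the GFP- library. The difference between the sorts thus had the same direction in the macrophage-like cells and in the empty droplets, and free RNA's part in it was not tested.

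Eno3 varied more between cells of the Myog-high myocyte-like cluster than the other members past a mean of 0.1 UMIs did. After every cell was thinned to 5000 UMIs, the variance of the Eno3 UMIs per cell was 3.08 times their mean in the 51 GFP+ cells of that cluster and 3.12 times in the 246 GFP- cells; Poisson counting alone gives a ratio near 1. Eno3 then ranked 83rd of 4820 genes with a mean of at least 0.1 UMIs in GFP+ cells and 58th of 5274 in GFP- cells. Aldoa had a ratio of 2.39 in GFP+ and 2.0 in GFP- cells of that cluster, and Eno1 one of 1.58 and 1.41. At that depth 39 of the 51 GFP+ cells and 158 of the 246 GFP- cells had no Eno3 UMI, while 2 GFP+ cells and 10 GFP- cells had 5 or more. In the 102 contractile GFP- cells the Eno3 ratio reached 3.80. Eno3 also had the largest member ratio in the activated cluster with Eno3 among its leading genes, at 1.98 in GFP+ and 1.80 in GFP- cells. In the cycling-like cluster it stood at 2.85 in GFP+ and 2.40 in GFP- cells. There Aldoa was above it in GFP+ cells (2.90) and Ldha in GFP- cells (3.30).

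Cells were split at each cluster's median UMIs per cell into deeper and shallower cells. The Eno3 share of the enolases was higher in the deeper cells in 9 of 9 GFP+ and 8 of 9 GFP- myogenic clusters. In the contractile cluster of GFP- cells it was 55.1% in the deeper cells (52.5 to 57.6) and 29.1% in the shallower cells (25 to 33.4). In the Myog-high GFP+ cells it was 28.8% in the deeper cells (25.4 to 32.4) and 9.30% in the shallower cells (4.90 to 15.7). The intervals did not overlap in 2 GFP+ and 4 GFP- clusters, in each of these with the deeper cells higher. Over all myogenic cells, GFP+ cells had the larger median depth (19121 UMIs, against 15058 in GFP- cells) and the lower Eno3 share (31.0% against 41.2%). The libraries held the clusters in different proportions, and the part of depth in this difference was not tested. For the mutase, hexokinase and phosphofructokinase pairs, the intervals of deeper and shallower cells lay apart in at most 1 cluster of either library. The Pgam2 share was higher in the deeper cells in 5 of 9 GFP+ and 7 of 9 GFP- clusters. For the Hk2 share the counts were 7 and 5, and for the Pfkm share 3 and 4. Pgam2 and Pfkm had few UMIs in most clusters, so a gap there could go unseen.

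**Figure D3:**
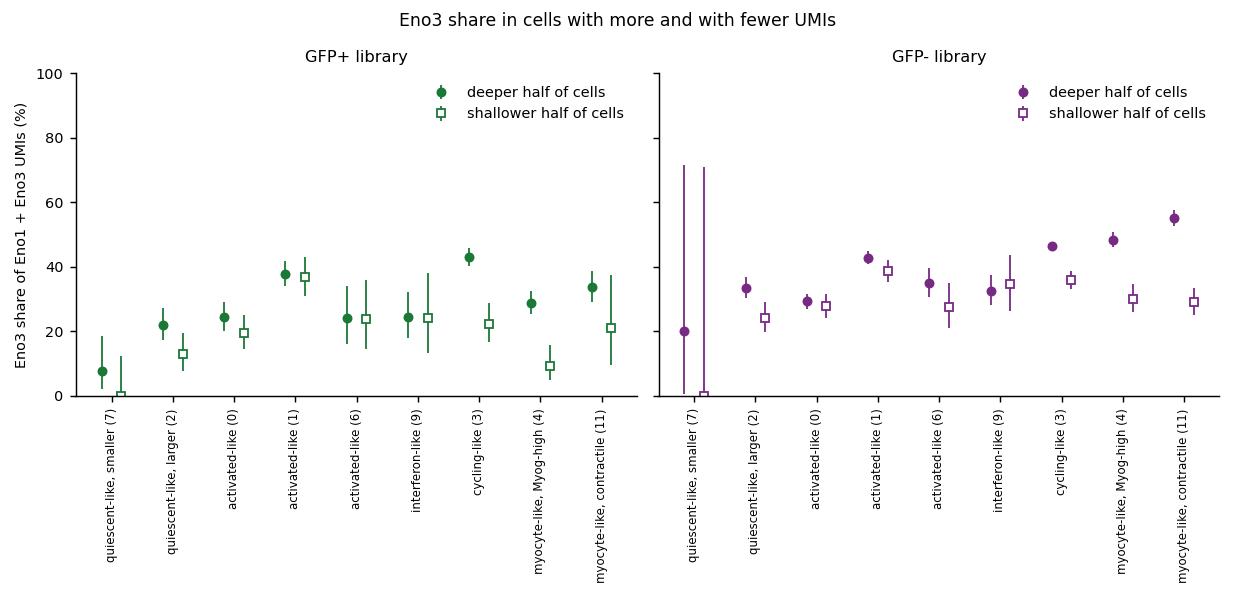
Eno3 share of the Eno1 plus Eno3 UMIs (percent, y axis) in the deeper cells (filled circles) and the shallower cells (open squares) of each myogenic cluster (x axis), in the GFP+ library (left) and the GFP- library (right), with 95% exact binomial intervals. The deeper cells lie above the shallower ones in 9 of 9 GFP+ clusters and 8 of 9 GFP- clusters, at 55.1% and 29.1% in the contractile GFP- cells.

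Ldha, the lactate dehydrogenase subunit (ENSMUSG00000063229, chromosome 7, 46841475 to 46855627, plus strand), was highest in the Myog-high cluster of GFP+ cells (698 CPM) and in the cycling-like cluster of GFP- cells (659 CPM). In the contractile cluster Ldha stood at 509 CPM in GFP+ and 444 CPM in GFP- cells, 0.730-fold (0.626 to 0.848) and 0.878-fold (0.816 to 0.945) of the Myog-high cluster.

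Taken over both myocyte-like clusters against the other 7 myogenic clusters, Pgam2, Aldoa, Eno1, Eno3 and Ldha had ratios with intervals above 1 in both libraries, and Pgam1 had intervals below 1 in both. Hk1 (0.826 and 0.799), Hk2 (1.09 and 0.725) and Pfkp (0.814 and 0.920) stayed within 1.5-fold in GFP+ and GFP- cells, and Pfkm did not pass the minimum. Pgam2 stood at 37.1 CPM in myocyte-like and 4.35 CPM in other GFP+ cells, a ratio of 8.54 (5.64 to 13.1), and 61.5 and 4.34 CPM in GFP- cells, a ratio of 14.2 (11.8 to 17.2). Without the 5% of cells with most UMIs the GFP+ ratio was 3.67. Aldoa was 2.01-fold higher in GFP+ (1.91 to 2.12) and 1.61-fold higher in GFP- cells (1.56 to 1.65).

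In the same comparison Eno1 was at 1.72-fold in GFP+ (1.60 to 1.86) and 1.34-fold in GFP- cells (1.28 to 1.41), and Eno3 at 1.43-fold (1.27 to 1.62) and 1.79-fold (1.70 to 1.88). Ldha was at 1.89-fold in GFP+ (1.76 to 2.02) and 1.24-fold in GFP- cells (1.19 to 1.29). Pgam1 was at 0.813-fold in GFP+ (0.723 to 0.913) and 0.608-fold in GFP- cells (0.573 to 0.645). So 4 of the 9 members past the minimum were called in each library: Pgam2, Aldoa, Eno1 and Ldha, all higher, in GFP+ cells, and Pgam2, Aldoa and Eno3 higher with Pgam1 lower in GFP- cells. Over all genes past the minimum, 39.6% of 5990 were called in GFP+ cells (15.9% higher and 23.8% lower) and 32.6% of 6073 in GFP- cells (12.3% higher and 20.3% lower). The members' share called in either direction, 4 of 9, was thus near that of all genes. The directions differed from those of all genes. In GFP+ cells the 4 called members were all higher, against 15.9% of all genes called higher and 23.8% lower. In GFP- cells Pgam1 alone was called lower, against 20.3% of all genes, and the other called members were higher, against 12.3%. With 9 members this difference was not tested. The states are named from the same cells, so these ratios are a description. Markers of other cell types were summed in the same cells. The macrophage list summed to 19.4 CPM there and 16.6 CPM in other GFP+ cells, and to 5.27 and 8.88 CPM in GFP- cells. The mural list summed to 3825 and 1155 CPM in GFP+ cells and to 3932 and 1217 CPM in GFP- cells; Acta2, the smooth-muscle actin, made up 99.4% of it in myocyte-like GFP+ and 99.0% in GFP- cells, with Myh11 at 0 in both. The fibro-adipogenic list summed to 159 CPM in myocyte-like and 851 CPM in other GFP+ cells, and to 161 and 728 CPM in GFP- cells; Col3a1 made up 98.6% of it in myocyte-like GFP+ and 99.5% in myocyte-like GFP- cells. The part of such cells in the ratios was not tested.

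**Figure D4:**
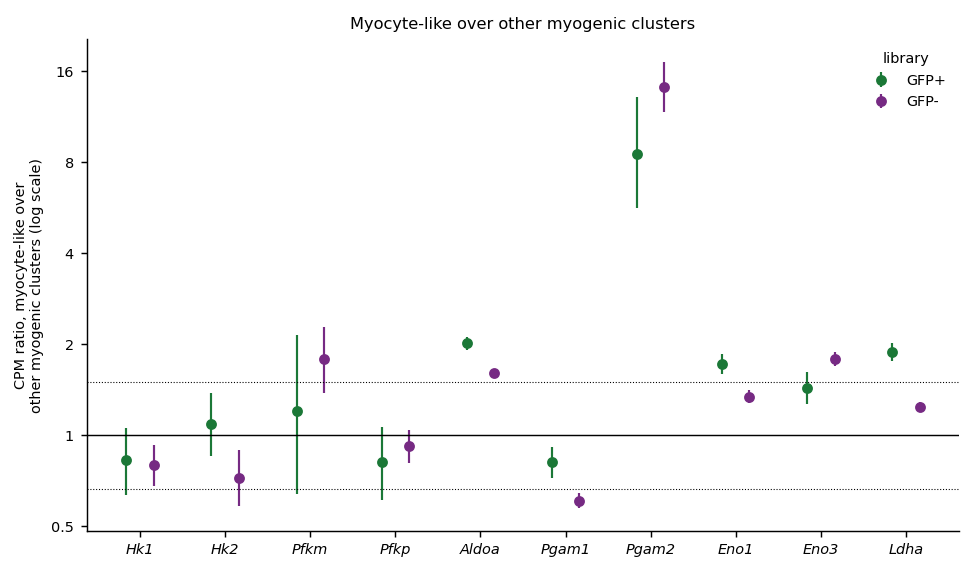
Ratio of CPM in the myocyte-like clusters over the other myogenic clusters (log y axis) for each of the 10 genes (x axis) in the GFP+ library (green) and the GFP- library (purple), with 95% exact intervals for counting error; dotted lines mark 1.5-fold. Pgam2 lies at 8.54 in GFP+ and 14.2 in GFP- cells, and Pgam1 lies below 1 in both.

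Between cycling-like and larger quiescent-like cells 6 of the 8 members past the minimum were called higher in both libraries: Pfkp, Aldoa, Pgam1, Eno1, Eno3 and Ldha. Hk2 was called lower in both and Hk1 in GFP+ cells. Eno1 was at 3.78-fold in GFP+ (3.33 to 4.30) and 3.66-fold in GFP- cells (3.40 to 3.95), Pgam1 at 3.30-fold (2.88 to 3.78) and 3.18-fold (2.99 to 3.40), and Ldha at 2.69-fold (2.42 to 3.0) and 3.39-fold (3.20 to 3.59). Over all genes past the minimum 46.1% of 6195 were called in GFP+ cells (25.8% higher and 20.4% lower) and 41.2% of 6208 in GFP- cells (24.4% higher and 16.8% lower). Of the 21 other glycolytic enzymes listed, 7 passed the minimum in GFP+ and GFP- cells. Pfkl, Tpi1, Pgk1 and Pkm were called higher in both libraries and Ldhb in GFP- cells. Tpi1 (triose-phosphate isomerase) was at 3.07-fold in GFP+ and 2.83-fold in GFP- cells, and Pgk1 (phosphoglycerate kinase) at 2.61-fold and 2.40-fold. Gapdh, at 1.30-fold and 1.34-fold, stayed under 1.5-fold. Pfkfb3, which makes the activator of phosphofructokinase, was lower, at 0.0827-fold in GFP+ cells (0.0351 to 0.167) and 0.130-fold in GFP- cells (0.0951 to 0.173).

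Genes of glycogen and high-energy phosphate metabolism were often higher in myocyte-like than in other myogenic cells. Of the 16 listed, 10 passed the minimum in each library. In GFP+ cells 6 were called higher and 1 lower, and in GFP- cells 7 were called higher and 0 lower; the median log2 ratio of those 10 was 0.66 in GFP+ and 1.05 in GFP- cells, against -0.04 and -0.05 over all genes past the minimum. Ckm, the muscle creatine kinase, stood at 42.8 CPM in myocyte-like and 1.14 CPM in other GFP+ cells, and at 99.9 and 1.45 CPM in GFP- cells. Ckb, the brain-type creatine kinase, was 3.02-fold higher in GFP+ and 3.04-fold higher in GFP- cells, and Pygm, the muscle glycogen phosphorylase, 2.47-fold and 2.83-fold. Gys1, the muscle glycogen synthase, was at 2.44-fold and 2.82-fold. Of the other glycolytic enzymes 8 passed in GFP+ and 7 in GFP- cells, with 0 called higher in either and 1, Ldhb, called lower in GFP+ cells (0.450-fold). Pgk1 was at 1.49-fold in GFP+ and 1.21-fold in GFP- cells, Gpi1 at 1.41-fold and 1.21-fold, and Gapdh at 1.36-fold and 1.19-fold. Of 10 listed regulators 7 passed. Mef2c, which encodes a MEF2 factor of muscle and is itself one of the markers that name the myocyte-like clusters, was 4.99-fold higher in GFP+ (3.42 to 7.28) and 10.0-fold higher in GFP- myocyte-like cells (8.76 to 11.5), and Six4 was 2.02-fold and 1.84-fold higher, whereas Myc was at 0.266-fold and 0.499-fold. Glucose and lactate transporters were scarce: 0 of 5 in GFP+ cells and 1 of 5 in GFP- cells passed the minimum, the monocarboxylate transporter Slc16a1 at 0.508-fold (0.397 to 0.643). Of the 10 hypoxia genes outside glycolysis 5 passed in each library, with 2 called higher and 1 lower in GFP+ cells (median log2 ratio -0.43) and 1 higher and 3 lower in GFP- cells (-0.59). Bnip3 was called higher in both (3.39-fold in GFP+ and 2.38-fold in GFP- cells) and Ddit4 lower in both (0.427-fold and 0.419-fold), Higd1a higher in GFP+ cells (1.54-fold), and Egln1 (0.667-fold) and P4ha1 (0.634-fold) lower in GFP- cells.

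Between the sorts, Hk2 had the largest ratio of the 10 members. Over all myogenic cells Hk2 stood at 46.3 CPM in GFP+ cells (486 UMIs) and 19.3 CPM in GFP- cells (812 UMIs), a ratio of 2.40 (2.14 to 2.69). The ratio was above 1 in each of the 9 clusters, at 1.31 to 3.13, with 7 of the 9 intervals above 1. After thinning to 5000 UMIs, Hk2 was detected in 18.4% of 461 GFP+ myogenic cells and 8.96% of 2343 GFP- myogenic cells; without thinning the shares were 40.6% and 21.8%. Cells of another type showed the same direction. In macrophage-like cells Hk2 stood at 49.7 CPM in GFP+ and 26.6 CPM in GFP- cells, a ratio of 1.87 (1.07 to 3.42), and in empty droplets at 22.9 and 16.9 CPM. The libraries also differed in the median mitochondrial share of UMIs, which was 2.49% for GFP+ against 4.46% for GFP- cells. The filter passed 604 of the 647 GFP+ barcodes with at least 1000 UMIs and 2683 of the 3076 GFP- ones. With the mitochondrial limit at 5% in place of 10%, the Hk2 ratio was 2.75. Whether the sort, the library or the handling of the cells goes with it cannot be told apart with 1 library each. Hk1 was at 1.47-fold (1.33 to 1.63), with 49.7 CPM in GFP+ and 33.7 CPM in GFP- cells. Of the UMIs of both hexokinases, Hk2 made up 48.3% in GFP+ cells (45.1 to 51.4) and 36.4% in GFP- cells (34.4 to 38.4).

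Eno1 was the second gene with a ratio above 1 in every myogenic cluster. Its ratio ran from 1.31 to 2.61 with all 9 intervals above 1. Over all myogenic cells the ratio was 1.27 (1.22 to 1.32), at 327 CPM in GFP+ and 258 CPM in GFP- cells, below its value in each cluster. The smaller quiescent-like cluster, where Eno1 was lowest, held 23.6% of the GFP+ and 1.99% of the GFP- cells in myogenic clusters. The pooled ratio weights clusters by their UMIs, of which this cluster held 821354 of 10492485 in GFP+ cells. In GFP- cells this cluster held 197492 of 42059586 UMIs. Other clusters differed in weight too. Of the same totals, 1579282 GFP+ and 9347329 GFP- UMIs came from the cycling-like cluster, where Eno1 was high. The larger quiescent-like cluster, where Eno1 was next lowest, gave 2450034 and 7811294 UMIs. The parts of these other clusters in the pooled ratio were not tested. With the clusters weighted equally the ratio was 1.52. In macrophage-like cells it was 1.08 (0.864 to 1.36). Eno3 was at 0.813-fold over all myogenic cells (0.769 to 0.859) and 0.682-fold to 1.27-fold over the clusters.

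Among the remaining members Aldoa was at 1.03-fold (1.01 to 1.06), Ldha at 0.981-fold (0.948 to 1.01), Pfkm at 0.921-fold (0.710 to 1.18) and Pfkp at 0.903-fold (0.812 to 1.0). Pgam1 was at 0.823-fold (0.787 to 0.860) and Pgam2 at 0.721-fold (0.578 to 0.890), but Pgam2 was at 1.07-fold with the mitochondrial limit at 5% and at 1.01-fold with the clusters weighted equally. Of the 8 members past the minimum (Pfkm and Pgam2 were below it), 1 was called. Over all 5785 genes past it 5.45% were called, 3.87% higher and 1.57% lower, and the median log2 ratio of these genes was -0.09, against 0.01 for the 8 members. None of the 7 other glycolytic enzymes past the minimum was called. Pgk1 was at 0.761-fold (0.732 to 0.791), Tpi1 at 0.829-fold (0.788 to 0.872), Pkm at 0.850-fold (0.825 to 0.876) and Gapdh at 0.945-fold (0.930 to 0.959). Within the myocyte-like clusters, the GFP+ over GFP- ratio of Hk2 was at 3.39 (2.51 to 4.56), Eno1 at 1.53 (1.42 to 1.66) and Hk1 at 1.52 (1.14 to 2.0), all called higher, and Pgam2 at 0.603 (0.457 to 0.785), called lower. For Pgam2 that pooled ratio takes 15 of 68 GFP+ and 104 of 359 GFP- cells from the contractile cluster, and 5 cells held 90.8% of its myocyte-like GFP+ UMIs; within the contractile cluster the ratio was 1.09 (0.815 to 1.43) and within the Myog-high cluster 0.122 (0.0246 to 0.369). Of the 5489 genes past the minimum there, 11.5% were called, 4.68% higher and 6.78% lower. Over all myogenic cells, of the regulators Mef2c was called lower (0.483-fold, 0.396 to 0.585).

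**Figure D5:**
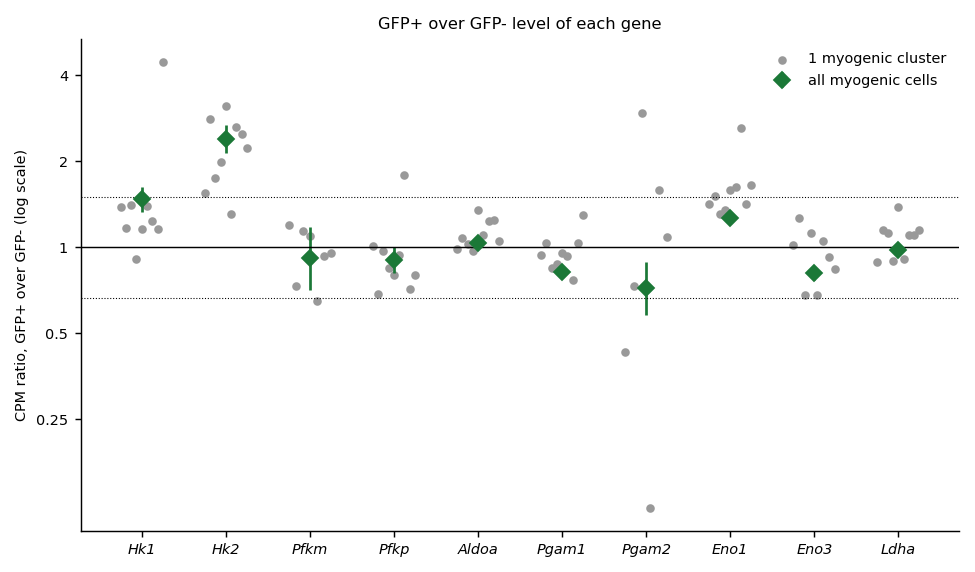
Ratio of CPM in GFP+ over GFP- myogenic cells (log y axis) for each of the 10 genes (x axis); green diamonds with 95% exact intervals are all myogenic cells, grey points are single myogenic clusters with at least 20 UMIs of the gene in both libraries together, and dotted lines mark 1.5-fold. Hk2 lies above 1 in the clusters shown with an overall ratio of 2.40, and the Eno1 clusters lie above its overall ratio of 1.27.

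The genes whose levels were most like those of 4 members over the 17 sums, among 7753 genes, were picked by Pearson r of log2 levels. For Eno3 they were Atp5j (r = 0.979), Cisd1 (0.977) and Cox5a (0.976), and for Eno1 Cox5b (0.983), Ndufa11 (0.969) and Cox7a2 (0.966). Atp5j encodes a subunit of the ATP synthase and Cox5a and Cox5b subunits of cytochrome c oxidase. For Pgam2 they were Tmem37 (0.961), Hspb3 (0.933), a small heat shock protein of muscle, and Tm6sf1 (0.931). Among the 17 sums only that of GFP- cells came from the contractile cluster, where Pgam2 was highest, so it weighs heavily in these r values. For Ldha they were Tfrc (0.962), the transferrin receptor, and the translation factors Eif4a1 (0.938) and Eif5a (0.936). The sums share libraries and depth, and the r values describe likeness only.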

How the data were processed

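Droplet 3′ single-cell RNA-seq (10x v3.1) gave 1 library of GFP+ and 1 of GFP- satellite cells. The deposited matrices hold raw UMI counts per gene and barcode, not normalized, made by the authors with Cell Ranger 4, per the file headers. Cell Ranger, Seurat and mm10 are named per the submitters' processing notes; the annotation release and settings: not given in the sources used here. The GFP+ matrix holds 718416 barcodes and 13928952 UMIs, the GFP- matrix 1361552 and 49709323.

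From these, barcodes with at least 1000 UMIs, 500 genes and no more than 10% of UMIs from mitochondrial genes passed (604 GFP+ and 2683 GFP-). Scrublet at an expected rate of 0.08 marked 3 doublets in each (0.497% and 0.112%), too few to show that it worked on GFP- cells, and 8 GFP- cells with endothelial markers were set apart, a choice made after seeing the data. The cells were clustered with scanpy 1.11.5 (2000 variable genes without the glycolysis lists, 30 components, 15 neighbours, Leiden resolution 0.6). A cluster counted as myogenic where no marker list of another cell type stood 2 or more above the other clusters on the log2 scale. It was then named by its most enriched myogenic list, with no minimum. Left out was a low-depth cluster (3 GFP+ and 12 GFP- cells) with none of its list's markers among its 10 leading genes. The names are rebuilt, not the authors'. UMIs were summed per cluster and library. With 1 library per group no test was possible; ratios have exact conditional 95% intervals, shares exact Clopper-Pearson ones and levels Poisson ones (scipy 1.17.1), which cover counting error only. The ratio code was tested on simulated data. Named genes were the 10 members, genes of fixed pathway lists, with values where they reached 50 CPM or 1.5-fold, and the 3 genes most like each of 4 members, by log2(CPM + 10). Members and lists were chosen with earlier results of these data known. Aldoa has a second feature ID, not used here. Promoters are from RefSeq (GRCm38.p6), and gene positions from the GENCODE annotation of the same assembly. Alternatives covered cell filters, clustering, scaling, thinning, free RNA and cluster weighting. The result of 1 listed gene is not reported here.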

Additional observations from a re-analysis of the deposited data

Results flagged for a closer look

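For 4 members the ratios had opposite directions in 2 groups under the same contrast; none of these differences was tested, since each group is 1 library. Hk2 in myocyte-like over other myogenic cells was at 1.09-fold in GFP+ (0.853 to 1.38) and 0.725-fold in GFP- cells (0.582 to 0.895). The GFP+ over GFP- ratio of Aldoa was 1.21 in myocyte-like (1.15 to 1.28) and 0.971 in other myogenic clusters (0.941 to 1.0). That of Pgam1 was 1.06 in myocyte-like (0.940 to 1.2) and 0.795 in other myogenic clusters (0.758 to 0.834). That of Ldha was 1.35 in myocyte-like (1.26 to 1.45) and 0.887 in other myogenic clusters (0.853 to 0.923). The intervals of Hk2 in GFP+ cells, Pgam1 in myocyte-like cells and Aldoa in other myogenic cells hold 1.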

How the results depend on the processing

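Of 82 recomputed main values, all counts or shares, 63 stayed within the limits set for them and 19 moved; of 370 ratios of single members, 280 stayed and 90 moved. On the other side of 1 than reported lay 10 of the 370, of Hk2, Pfkp, Pgam2 and Ldha, none of which was reported as past 1.5-fold in that comparison. The causes were not tested. The count of members 1.5-fold apart between GFP+ and GFP- myogenic cells, 1 as reported, was 3 without the 5% of cells with most UMIs and 2 with median-of-ratios scaling, with thinning to 5000 UMIs and with clusters weighted equally. For myocyte-like over other cells the count of 4 became 7 in GFP+ cells with thinning and with the contractile cluster alone, and 8 in GFP- cells with the contractile cluster alone. The Eno3 share in myocyte-like cells, 28.1% in GFP+ and 46.6% in GFP- cells, was 23.5% and 37.2% without the deepest 5%, 32.6% and 48.8% in the contractile cluster alone, 39.7% in GFP- cells after thinning and 48.5% at a mitochondrial limit of 5%. The Pgam2 share of 16.1% in GFP+ cells was 8.91% without the deepest 5% and 44.9% in the contractile cluster; that of 25.3% in GFP- cells was 20.7% at the 5% mitochondrial limit, 22.0% with the glycolysis lists kept in the clustering, 21.02% after thinning and 49.3% in the contractile cluster. Over 13 alternatives the GFP+ over GFP- ratio of Hk2 ran from 2.15 to 2.75, of Eno1 from 1.08 to 1.52 and of Pgam2 from 0.536 to 1.07. The contractile cluster alone and Eno1b added to Eno1 were chosen after seeing the data. No paired analysis was possible because each group has 1 library, and for the same reason leaving out a replicate was not run. The number of cells, 15, limits the contractile GFP+ values, and depth those of the smaller quiescent-like cluster, with 0 Pgam2 UMIs in both libraries.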
